A study of Mus musculus with 43 samples.

Results

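The 10 genes described here mark the endothelial cells that line brain vessels and the barrier these cells form. They are Cldn5, Cdh5 and Pecam1 of the cell junctions, the growth factor receptors Flt1, Kdr and Tek, the transporters Slc2a1, Slco1a4 and Abcb1a, and the surface antigen Ly6c1. They were taken by symbol, through the Ensembl identifier of each gene row, and were chosen with earlier results of these data known. All 10 were found among the 55804 gene rows of both deposited tables. All 10 also passed the filter on low values, a mean of at least 1 TPM (a share of the transcripts of a library that is corrected for transcript length), as did 16776 rows in one table and 17592 in the other.

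The study sequenced brain RNA of mice, in 43 libraries, to follow CDDO-2P-Im (2P-Im), a triterpenoid that induces the stress-response factor NRF2, in 2 models of Alzheimer's disease. The AppNLGF table holds 28 libraries of 6-month-old mice. In 13 of them AppNL-G-F/NL-G-F mice, whose own App gene carries knocked-in disease mutations on both alleles, received 2P-Im, in 11 such mice received vehicle, and in 4 wild-type mice received vehicle. The APP/TAU table holds 15 libraries of 11-month-old mice. APPV717I::TAUP301L mice, which carry human APP and TAU transgenes, received 2P-Im in 5 libraries and vehicle in 5, and wild-type mice received vehicle in 5. The oral dose of 2P-Im was 30 µmol/kg on 3 occasions a week, over 4 weeks in the AppNLGF mice and over 2 weeks in the APP/TAU mice. The vehicle was a mixture of DMSO, Cremophor EL and PBS, and no group was left without vehicle or drug. The sources used here do not name the promoters of the transgenes, the wild-type strain or the brain region, nor whether a library is 1 animal. The p-values cover the spread between these libraries, which may in part be technical.

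Brain endothelial cells are joined by tight and adherens junctions that close the path between cells. They carry glucose and other nutrients into the brain and pump many lipophilic compounds back into the blood. VEGF, angiopoietin and Wnt signals from neighbouring cells set up and maintain this state.

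Levels are given as TPM after median-ratio scaling, which makes the median gene equal across the libraries of a table, and for the 10 members the deposited values are given where the scaling changes a call. A gene is called where the adjusted p of limma (Benjamini-Hochberg over all tested rows, on log2(TPM + 1)) is below 0.05. Fold changes are on that log2 scale, which understates the change of low genes, each ± the standard error. Without scaling, the median of the folds over all tested genes in the APP/TAU table was -0.19 for 2P-Im against vehicle and 0.18 for vehicle against wild type, so deposited folds of these comparisons are read relative to those shifts. The other 4 comparisons had deposited medians between -0.06 and -0.01. In bulk tissue, fewer endothelial cells and less RNA per cell cannot be told apart. All 3 comparisons of a table draw on the same 3 groups, so they share control samples.

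The libraries differed in other respects that touch these genes. The summed level of 9 striatal markers was 400 to 802 TPM in the AppNLGF table and 112 to 167 TPM in the APP/TAU table, and that of the cerebellar markers 34.3 to 53.1 TPM and 497 to 700 TPM. Whether the same brain parts were sampled was not tested, and levels of the separately normalized tables were not tested against each other. AppNLGF 2P-Im libraries 1 and 2 stood apart from the other 11 of their group, with the lowest summed microglial markers (165 and 133 TPM) and the lowest Gfap (77.3 and 77.6 TPM). Xist was above 10 TPM in 7 of 13 AppNLGF 2P-Im, 5 of 11 AppNLGF vehicle and 0 of 4 wild-type libraries, and in 0 of the 15 libraries of the APP/TAU table. Results that rest on these libraries are given with and without them. Nqo1, an NRF2 target that checks exposure to the drug, averaged 3.67 ± 0.725 TPM with 2P-Im, 2.37 ± 0.655 TPM with vehicle and 2.57 ± 0.555 TPM in wild type (SD, n = 13, 11 and 4) in the AppNLGF table. In the APP/TAU table it averaged 7.13 ± 1.14 TPM with 2P-Im, 4.05 ± 0.538 TPM with vehicle and 4.35 ± 0.659 TPM in wild type (SD, n = 5 each).

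Promoter windows of the genes on which the comparisons turn are shown here for orientation. They come from RefSeq on GRCm38.p6, and each is the 250 bases before the start of transcription, 5′ to 3′ on the strand of the gene. Cldn5 (chr16:18776597-18776846, plus strand) and Ly6c1 (chr15:75048664-75048913, minus strand, the downstream of 2 listed starts) are shown because they are the 2 members called below. Flt1 (chr5:147726012-147726261, minus strand) and Kdr (chr5:75978456-75978705, minus strand) are the VEGF receptors. Capitals mark TGACNNNGC, the core of the antioxidant response element bound by NRF2, or GGAAG, the core bound by ETS factors, on either strand, so that CTTCC is GGAAG read from the other strand.
Cldn5: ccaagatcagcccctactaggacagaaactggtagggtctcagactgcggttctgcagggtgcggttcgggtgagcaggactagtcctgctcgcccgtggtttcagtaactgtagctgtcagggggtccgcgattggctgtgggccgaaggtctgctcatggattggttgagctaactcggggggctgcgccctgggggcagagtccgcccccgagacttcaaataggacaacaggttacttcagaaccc
Ly6c1: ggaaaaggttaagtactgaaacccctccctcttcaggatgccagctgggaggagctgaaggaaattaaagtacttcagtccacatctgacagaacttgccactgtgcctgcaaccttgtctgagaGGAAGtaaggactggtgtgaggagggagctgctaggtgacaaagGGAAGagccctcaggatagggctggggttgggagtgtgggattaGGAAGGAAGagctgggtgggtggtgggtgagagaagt
Flt1: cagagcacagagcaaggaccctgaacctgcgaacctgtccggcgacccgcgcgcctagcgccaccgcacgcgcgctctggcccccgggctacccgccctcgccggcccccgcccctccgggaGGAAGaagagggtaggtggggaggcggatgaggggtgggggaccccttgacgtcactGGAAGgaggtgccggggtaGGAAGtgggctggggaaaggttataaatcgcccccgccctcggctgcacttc
Kdr: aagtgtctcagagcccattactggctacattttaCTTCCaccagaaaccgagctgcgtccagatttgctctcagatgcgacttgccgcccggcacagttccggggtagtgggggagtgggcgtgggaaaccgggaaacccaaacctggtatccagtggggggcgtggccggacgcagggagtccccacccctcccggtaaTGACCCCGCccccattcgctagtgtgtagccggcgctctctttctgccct

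Over the full windows, which add the first 50 transcribed bases, the Cldn5 window held neither motif. The Ly6c1 window shown held GGAAG at 4 places, a pair of which share a base, and the Flt1 window at 3. Part of that Ly6c1 window lies inside the annotated gene, which starts at 75048830 on the minus strand. The window of the upstream Ly6c1 start (chr15:75048788-75049087) held GGAAG at 1 place. The Kdr window held GGAAG once and TGACNNNGC once, beginning 50 bases before the start. Of the 10 members, 8 had windows in the RefSeq table, 9 windows in all; the windows of Pecam1 and Cdh5 were not used here. TGACNNNGC was in the windows of 2 members, Kdr and Abcb1a, and in 12.392% of all 32851 windows. The Abcb1a window (chr5:8566841-8567140, plus strand) lies upstream of the annotated start of the gene at 8660077, and its TGACNNNGC lies among the transcribed bases. GGAAG was in the windows of 5 members (Abcb1a, Flt1, Kdr, Ly6c1 and Slco1a4) and in 71.413% of all windows. CTTTGA, the TCF/LEF core of Wnt signalling, was in 1 member's window (Abcb1a) and in 16.003% of all. A match here is a description of the letters in a window, not of a bound site.

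In the AppNLGF table Cldn5 and Ly6c1 were higher in 2P-Im brains than in wild-type brains after scaling, by 0.57 ± 0.097 and 0.53 ± 0.11 log2 units (adjusted p = 0.000886 and 0.00892). They were 2 of 10 members called in this comparison, where 0.715% of all tested genes were called. Its groups differ in both model and drug, which it cannot tell apart. No member was lower. All 10 folds were positive with a median of 0.26, and the median over all tested genes was -0.0027. Members of all 4 roles had unadjusted p below 0.05, 8 of 10 in all, against 11.6% of all tested genes. With the deposited values 0 of 10 members were called (0.262% of all genes), and 5 of 10 had an unadjusted p below 0.05, against 7.73% of all genes.

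Between 2P-Im and vehicle no member was called in AppNLGF mice by limma, either with scaling (0.286% of all genes called) or with the deposited values (0.0536%). At an unadjusted p below 0.05 there were 3 members with scaling (Cldn5, Kdr and Pecam1), against 12.5% of all genes, and 0 with the deposited values, against 6.18%. The scaled folds were all positive with a median of 0.09. Between vehicle and wild type no member was called either (0.691% with scaling, 0.280% deposited). Cldn5, Ly6c1 and Abcb1a had unadjusted p below 0.05 with scaling, against 7.05% of all genes, and 2 members did with the deposited values, Cldn5 and Ly6c1, against 4.16% of all genes. Of the 10 scaled folds 9 were positive, with a median of 0.14, and Tek was at -0.04.

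The mean log2(TPM + 1) of the 10 members, a description of them together, was 2.96 ± 0.0914 in 2P-Im brains, 2.84 ± 0.0511 in vehicle brains and 2.67 ± 0.0353 in wild-type brains (SD, n = 13, 11 and 4). It ran between 2.80 and 3.15 with 2P-Im, between 2.75 and 2.94 with vehicle and between 2.63 and 2.71 in wild type. These values are after scaling, where the 2P-Im and vehicle ranges overlapped and both lay above the wild-type range. With the deposited values every range overlapped the others. The mean then ran between 2.60 and 3.20 with 2P-Im, between 2.75 and 2.97 with vehicle and between 2.62 and 2.78 in wild type.

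**Figure D1:**
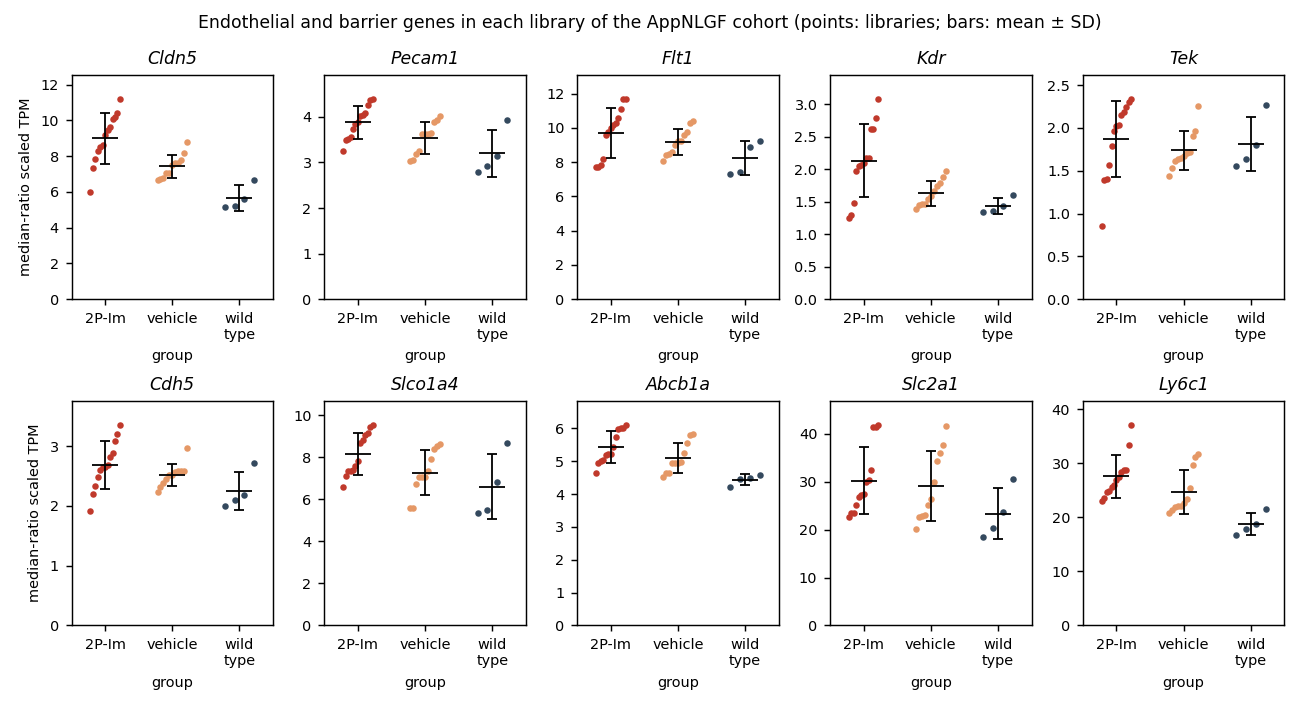
Level of each of the 10 genes in the AppNLGF table, in TPM after median-ratio scaling on the vertical axes, by group (2P-Im, vehicle, wild type) on the horizontal axes, with 1 point per library sorted by value within its group and bars for the mean ± SD. Cldn5 lies between 6.01 and 11.2 TPM with 2P-Im and between 5.14 and 6.69 TPM in wild type, and Ly6c1 lies between 23.0 and 37.1 TPM with 2P-Im and between 16.8 and 21.5 TPM in wild type.

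Among the junction genes, Cldn5 encodes claudin-5, the main sealing protein of endothelial tight junctions (ENSMUSG00000041378, chromosome 16, 18776847 to 18778262, GRCm38). Its level had a lowest, median and highest value of 6.01, 9.16 and 11.2 TPM in 2P-Im brains and of 6.68, 7.50 and 8.78 TPM in vehicle brains. The 4 wild-type libraries had 6.69, 5.14, 5.60 and 5.24 TPM. In 2P-Im brains 12 of 13 libraries lay above every wild-type library, and in vehicle brains 10 of 11 did. The fold of 2P-Im against vehicle was 0.23 ± 0.069 (adjusted p = 0.129), with 7 of 13 libraries above every vehicle library and 1 below, and that of vehicle against wild type 0.34 ± 0.099 (adjusted p = 0.163). With the deposited values the fold of 2P-Im against wild type was 0.51 ± 0.14 (adjusted p = 0.219). Leaving out the 2 libraries that stood apart, an alternative chosen after seeing the data, Cldn5 was called in all 3 scaled comparisons. The folds were then 0.64 against wild type (adjusted p = 4.59e-06), 0.30 against vehicle (adjusted p = 0.0164) and 0.34 for vehicle against wild type (adjusted p = 0.0197), and the deposited fold against wild type was 0.62 (adjusted p = 0.00122). The 2 excluded libraries are no part of vehicle against wild type, where the fold stayed at 0.34. The standard error there, from a spread estimated over all 3 groups, fell from 0.099 to 0.076. Leaving out 2P-Im library 2 alone was enough for a call of Cldn5 against vehicle (adjusted p = 0.0366), of vehicle against wild type (adjusted p = 0.0405) and, as deposited, of 2P-Im against wild type (adjusted p = 0.0203). Library 2 held the lowest Cldn5 of the 2P-Im group, 6.01 TPM, so leaving it out raises the 2P-Im folds and narrows the spread by itself.

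Cdh5 encodes VE-cadherin, the adherens junction protein of endothelium. It had a lowest, median and highest level of 1.92, 2.66 and 3.36 TPM in 2P-Im brains and 2.24, 2.52 and 2.97 TPM in vehicle brains, against 2.18, 2.09, 2.72 and 2.00 TPM in wild-type brains. The groups overlapped, and the fold of 2P-Im against wild type was 0.18 ± 0.079 (adjusted p = 0.377). Pecam1 encodes CD31, an adhesion molecule at endothelial contacts that leukocytes and platelets also carry. It had 3.26, 3.88 and 4.40 TPM with 2P-Im and 3.03, 3.63 and 4.01 TPM with vehicle, against 2.79, 3.15, 3.94 and 2.93 TPM in wild type. Its groups overlapped too, through the third wild-type library, and the fold of 2P-Im against wild type was 0.22 ± 0.071 (adjusted p = 0.187).

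The receptors spread more widely within the 2P-Im group than within the others. Kdr encodes VEGFR2, the main signalling receptor for VEGF. It had a lowest, median and highest level of 1.25, 2.10 and 3.09 TPM in 2P-Im brains and 1.39, 1.59 and 1.97 TPM in vehicle brains, against 1.36, 1.44, 1.61 and 1.34 TPM in wild-type brains. Of the 13 2P-Im libraries 10 lay above every vehicle library and 2 below every one. The fold was 0.23 ± 0.082 against vehicle (adjusted p = 0.210) and 0.34 ± 0.12 against wild type (adjusted p = 0.211, with an unadjusted 95% interval of 0.11 to 0.58).

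Flt1 encodes VEGFR1, which binds VEGF tightly and signals weakly. It had 7.69, 10.0 and 11.7 TPM with 2P-Im and 8.07, 9.23 and 10.4 TPM with vehicle, against 7.29, 7.45, 8.88 and 9.24 TPM in wild type. In 9 of 13 2P-Im libraries it was above every wild-type library, and its fold was 0.21 ± 0.091 (adjusted p = 0.365). Tek encodes TIE2, the receptor of the angiopoietins. It had 0.859, 2.03 and 2.34 TPM with 2P-Im and 1.44, 1.67 and 2.26 TPM with vehicle, against 1.55, 2.26, 1.80 and 1.64 TPM in wild type. The groups lay on top of each other, and the fold of 2P-Im against wild type was 0.01 ± 0.11 with scaling and -0.03 ± 0.14 without (adjusted p = 0.980 and 0.966).

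Slc2a1 encodes GLUT1, which carries glucose across the barrier and is also made by glia. It had a lowest, median and highest level of 22.6, 27.5 and 41.9 TPM in 2P-Im brains and 20.2, 26.4 and 41.7 TPM in vehicle brains, against 20.4, 18.5, 23.8 and 30.6 TPM in wild-type brains. The groups overlapped, and the fold of 2P-Im against wild type was 0.36 ± 0.18 (adjusted p = 0.438). The 3 2P-Im libraries highest in Slc2a1, numbers 2, 5 and 7 at 41.5, 41.5 and 41.9 TPM, were the 3 lowest in Kdr, at 1.30, 1.49 and 1.25 TPM. Vehicle library 1 had both the highest Slc2a1 of its group, 41.7 TPM, and the lowest Kdr, 1.39 TPM. These 4 libraries had scale factors between 0.833 and 0.913, so less of their TPM total fell on the median gene than in most libraries, and the part of that in the levels was not tested.

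Abcb1a encodes the P-glycoprotein of rodent brain capillaries, a drug efflux pump. It had a lowest, median and highest level of 4.64, 5.23 and 6.11 TPM in 2P-Im brains and 4.51, 4.96 and 5.84 TPM in vehicle brains, against 4.21, 4.59, 4.46 and 4.50 TPM in wild-type brains. All 13 2P-Im libraries lay above every wild-type library, and 10 of 11 vehicle libraries did. The fold of 2P-Im against wild type was 0.24 ± 0.062 (adjusted p = 0.0698), and it was called without 2P-Im library 11 (fold 0.25, adjusted p = 0.0405). Abcb1a and Ly6c1 were the 2 of 10 members whose 2P-Im and wild-type groups did not overlap with scaling, where 0.793% of all genes did not; with the deposited values 0 of 10 were without overlap (0.256% of all genes). In 2P-Im against vehicle all 10 members overlapped (0 of 10), against 0.0179% of all genes without overlap with scaling and 0.00596% deposited. In vehicle against wild type 0 of 10 were without overlap as well, against 0.882% with scaling and 0.662% deposited. Abcb1a shares much of its sequence with Abcb1b, so its level depends on how reads were divided between them. Slco1a4 encodes OATP1A4, an organic anion transporter of brain capillaries. It had 6.59, 7.83 and 9.54 TPM with 2P-Im and 5.57, 7.06 and 8.64 TPM with vehicle, against 6.83, 8.70, 5.35 and 5.50 TPM in wild type. The groups overlapped, and the fold of 2P-Im against wild type was 0.28 ± 0.11 (adjusted p = 0.274).

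Ly6c1 encodes a surface antigen anchored in the membrane of mouse endothelium, which some leukocytes also carry (ENSMUSG00000079018, chromosome 15, 75044018 to 75048830). It had a lowest, median and highest level of 23.0, 26.8 and 37.1 TPM in 2P-Im brains and 20.7, 22.6 and 31.6 TPM in vehicle brains. The wild-type libraries had 18.7, 16.8, 17.9 and 21.5 TPM. All 13 2P-Im libraries lay above every wild-type library, and 9 of 11 vehicle libraries did. The fold was 0.16 ± 0.078 against vehicle (adjusted p = 0.412) and, for vehicle against wild type, 0.37 ± 0.11 (adjusted p = 0.188). With the deposited values the fold of 2P-Im against wild type was 0.46 ± 0.11 (adjusted p = 0.121), without 2P-Im libraries 1 and 2 it was 0.48 (adjusted p = 0.035), and without library 1 alone 0.49 (adjusted p = 0.032). Leaving out wild-type library 2 or 3 ended the scaled call (adjusted p = 0.0757 and 0.0615). Ly6c1 has near copies, Ly6c2 and Ly6a among them, and reads may be divided between them.

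Both calls rest on the 4 wild-type libraries, which carry replicate numbers 1 to 4 and have Xist below 10 TPM. Among libraries with Xist below 10 TPM alone, a set chosen after seeing the data, the scaled folds of 2P-Im against wild type were 0.50 for Cldn5 (adjusted p = 0.115) and 0.51 for Ly6c1 (adjusted p = 0.140). Among replicate numbers 1 to 5 alone, likewise chosen later, they were 0.52 and 0.54 (adjusted p = 0.142 for both). The folds were of like size, in fewer libraries, and neither was called.

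**Figure D2:**
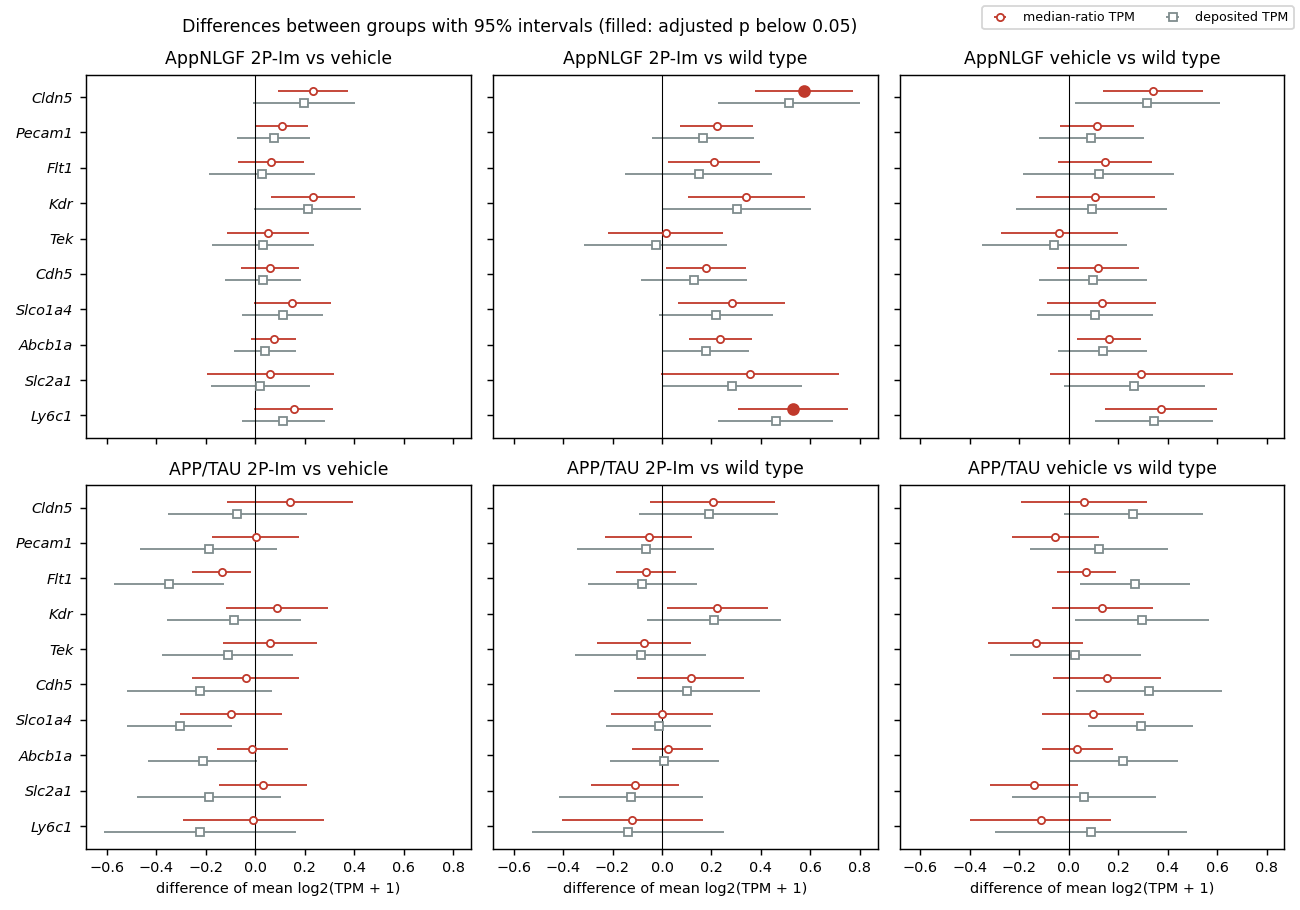
Log2 fold of each of the 10 genes on the horizontal axes for the 6 comparisons, with lines for the 95% interval, after median-ratio scaling and as deposited; filled markers are folds called at an adjusted p below 0.05. The filled markers are Cldn5 at 0.57 and Ly6c1 at 0.53 in 2P-Im against wild type of the AppNLGF table, and the deposited folds of 2P-Im against vehicle in the APP/TAU table all lie below 0.

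Some markers of other cell types moved in the same comparison. The summed level of the microglial markers was 133 to 225 TPM in 2P-Im brains, 178 to 228 TPM in vehicle brains and 131 to 143 TPM in wild-type brains, and Csf1r and C1qa among them were higher with 2P-Im than in wild type, by 0.34 and 0.80 (adjusted p = 0.0173 and 1.05e-05). Gfap, 1 of 8 listed markers of astrocytes, was higher by 1.54 (adjusted p = 4.37e-07). The mean log2(TPM + 1) of the 8 was 6.38 ± 0.122 with 2P-Im and 6.16 ± 0.0273 in wild type (SD, n = 13 and 4). Of 11 markers of mural cells, the pericytes and muscle cells around vessels, only Rgs5 was called, at 19.2 ± 2.00 TPM with 2P-Im and 15.4 ± 0.369 TPM in wild type (fold 0.30, adjusted p = 0.0115), a call that was not made with the deposited values (adjusted p = 0.662) and ended without wild-type library 1 or 2 (adjusted p = 0.061 and 0.0654). It also ended with a term for replicate number or for Xist (adjusted p = 0.0693 and 0.0618). Rgs5 was called between vehicle and wild type too (fold 0.27, adjusted p = 0.0365), and leaving out 1 library at a time ended that call in 10 of 28 fits. The mural markers summed to 61.5 to 77.0 TPM with 2P-Im, 61.5 to 74.5 TPM with vehicle and 58.8 to 62.9 TPM in wild type. Red cell markers, a sign of blood left in the tissue, summed to 5.61 to 165 TPM with 2P-Im, 17.9 to 118 TPM with vehicle and 79.8 to 246 TPM in wild type. Choroid plexus markers summed to 9.49 to 765 TPM with 2P-Im, 7.23 to 662 TPM with vehicle and 481 to 693 TPM in wild type, and no gene of the red cell or choroid plexus lists was called. No marker of these lists was at 0 in every library. The part of these cells in the endothelial folds was not tested.

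**Figure D3:**
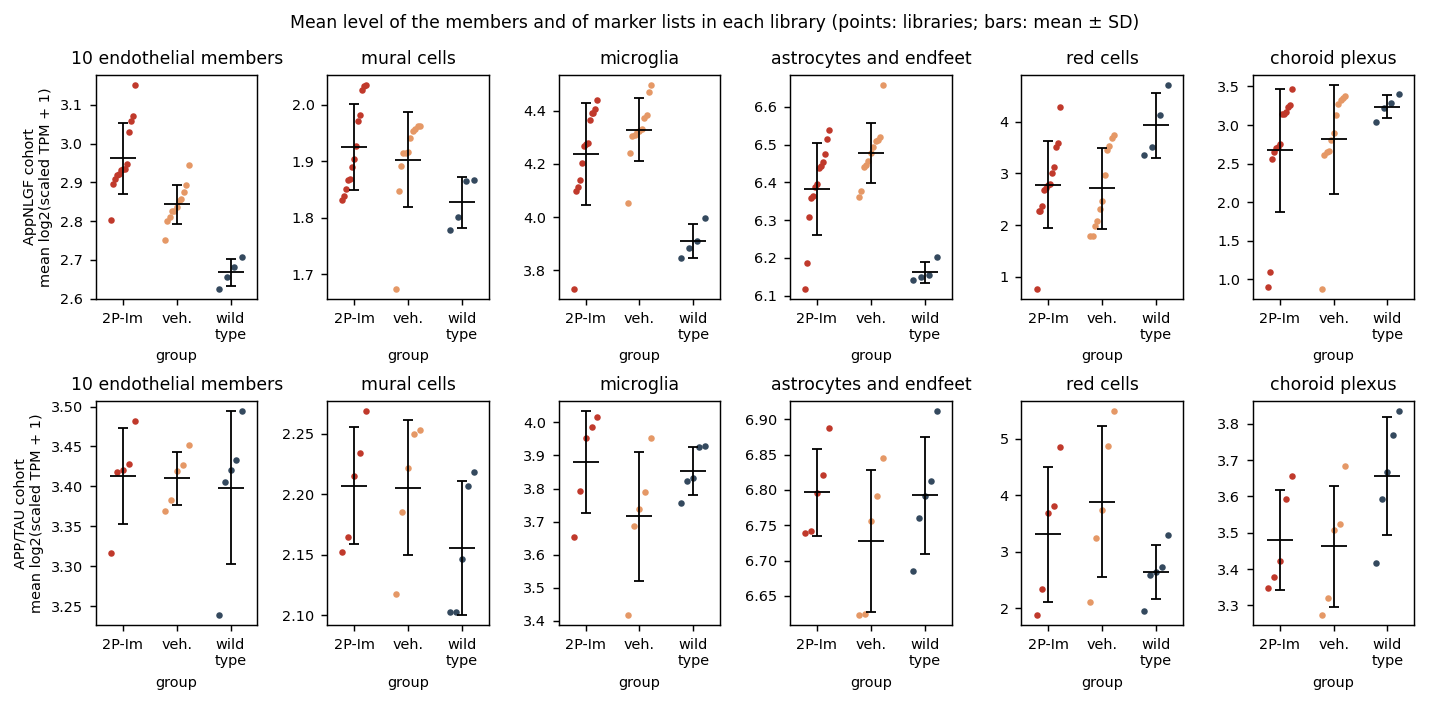
Mean log2 level of marker genes by cell type, after median-ratio scaling, by library and group in the AppNLGF table and the APP/TAU table. The vertical axes do not start at 0. On this log2 scale microglial markers average 4.24 in AppNLGF 2P-Im, 4.33 in AppNLGF vehicle and 3.91 in the wild-type libraries of that table.

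Most genes of the wider lists of barrier genes were not called. Among 24 tested genes of endothelial identity, 2 were higher with 2P-Im than in wild type after scaling and none was lower, with a median fold of 0.17. They were Vwf, the von Willebrand factor of larger vessels and of platelets, at 3.87 ± 0.642 TPM with 2P-Im and 2.37 ± 0.372 TPM in wild type (fold 0.53, adjusted p = 0.00255), and Ly6a, which encodes the Sca-1 antigen (fold 0.55, adjusted p = 0.00729). Vwf was above every wild-type library in 13 of 13 and was called with the deposited values too (fold 0.47, adjusted p = 0.0219); without wild-type library 1 its scaled adjusted p was 0.0502, and among replicate numbers 1 to 5 alone it was 0.106. Ly6a was not called with the deposited values (adjusted p = 0.161), and its call ended without wild-type library 1, 2 or 4 (adjusted p = 0.0659, 0.0702 and 0.0794). Among 13 junction genes only Cldn5 was called and the median fold was -0.01. Esam, an adhesion molecule of endothelial contacts, came next at 0.34 (adjusted p = 0.107).

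Among 19 tested barrier transporters 2 were higher with 2P-Im than in wild type. They were Abcg2, a drug efflux pump, at 6.12 ± 0.888 TPM with 2P-Im and 4.21 ± 0.520 TPM in wild type (fold 0.45, adjusted p = 0.0232), and Slc40a1, the iron exporter ferroportin, at 3.02 ± 0.557 TPM with 2P-Im and 2.02 ± 0.363 TPM in wild type (fold 0.41, adjusted p = 0.0328). Without wild-type library 1 or 3 Abcg2 was not called (adjusted p = 0.149 and 0.150), nor was Slc40a1 without wild-type library 2, 3 or 4 (adjusted p = 0.0523, 0.228 and 0.135). With the deposited values neither was called (adjusted p = 0.458 for Abcg2 and 0.452 for Slc40a1). Slc40a1 was also the only barrier transporter called between 2P-Im and vehicle, where vehicle brains averaged 2.21 ± 0.204 TPM (fold 0.32, adjusted p = 0.0322), and leaving out 1 library at a time ended that call in 11 of 28 fits; as deposited its adjusted p was 0.471. Of 9 tested targets of NRF2 or the aryl hydrocarbon receptor in transport and detoxification, 3 were higher than in wild type (Abcg2, Gstm1 and Hmox1) and 2 higher than with vehicle (Gstm1, fold 0.50, adjusted p = 0.000104, and Nqo1, fold 0.47, adjusted p = 0.0269). Leaving out 1 library ended the call of Hmox1 in 22 fits and that of Nqo1 in 7, and that of Gstm1 in none. With the deposited values none of these 3 was called. The adjusted p was then 0.0604 for Gstm1 and 0.157 for Nqo1 against vehicle, and 0.219 for Gstm1 and 0.393 for Hmox1 against wild type. Among libraries with Xist below 10 TPM alone the scaled adjusted p against vehicle was 0.0602 for Gstm1 and 0.343 for Nqo1, and among replicate numbers 1 to 5 alone 0.0971 and 0.426.

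The signals that act on the receptors were not called between 2P-Im and wild type. Of 6 tested ligands of VEGF, angiopoietin and Notch signalling the smallest p belonged to Vegfa, which encodes VEGF-A (fold 0.26, adjusted p = 0.188). Of 11 receptors and partners, with a median fold of 0.20, it belonged to Ptprb, a phosphatase that acts on TIE2 and VE-cadherin (fold 0.20, adjusted p = 0.208), and Notch4 (fold 0.37, adjusted p = 0.210). Of 17 genes of Wnt signalling at the barrier, Lrp5, a coreceptor, was at 0.16 (adjusted p = 0.417) and the ligand Wnt7a at -0.22 (adjusted p = 0.437). In the artery, capillary and leaky or activated endothelium lists, 5, 10 and 5 genes tested, none was called, and among 6 vein genes only Vwf was.

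In the APP/TAU table no member was called by limma in any comparison. The shares of all genes called with scaling were 0.0114% for 2P-Im against vehicle, 0.0284% for 2P-Im against wild type and 0.0284% for vehicle against wild type, and with the deposited values 0%, 0.0227% and 0.0227%. Members with an unadjusted p below 0.05 numbered 1, 1 and 0 of 10 with scaling and 2, 0 and 5 with the deposited values. The shares of all genes were 8.84% and 7.83% for the first pair, and 26.8% for 2P-Im against vehicle and 23.8% for vehicle against wild type as deposited. They were 14.2% for vehicle against wild type with scaling and 2.16% for 2P-Im against wild type as deposited. The mean log2(TPM + 1) of the members after scaling was 3.41 ± 0.0601 with 2P-Im, 3.41 ± 0.0334 with vehicle and 3.40 ± 0.0955 in wild type (SD, n = 5 each).

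**Figure D4:**
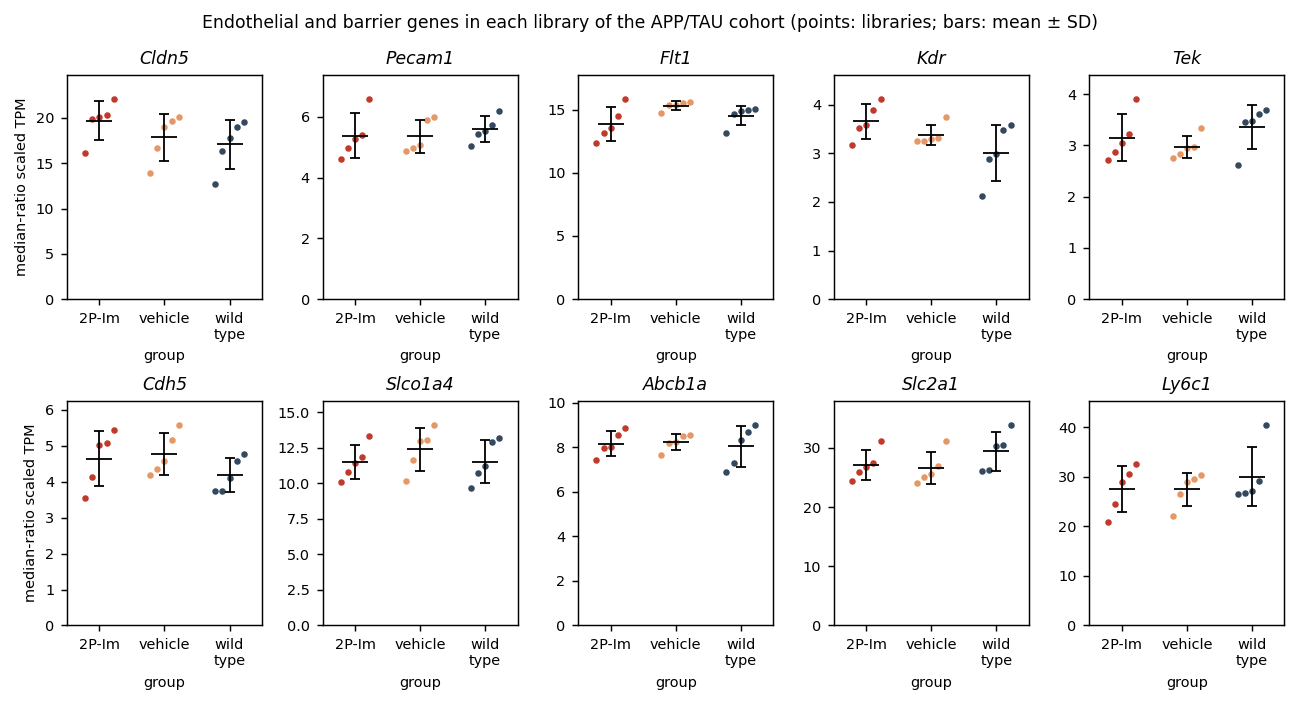
Level of each of the 10 genes in the APP/TAU table, in TPM after median-ratio scaling on the vertical axes, by group on the horizontal axes, with 1 point per library sorted by value within its group and bars for the mean ± SD. The groups overlap for all 10 genes, and Flt1 averages 13.9 TPM with 2P-Im, 15.3 TPM with vehicle and 14.5 TPM in wild type.

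Deposited levels of all 10 members were lower with 2P-Im than with vehicle, with a median fold of -0.20 against -0.19 over all genes. Flt1 had 13.5, 13.3, 14.1, 13.8 and 11.2 TPM as deposited in 2P-Im brains and 17.5, 20.0, 15.0, 17.9 and 15.1 TPM in vehicle brains. All 5 2P-Im libraries lay below every vehicle library, and Flt1 was the only 1 of 10 members without overlap, against 3.68% of all genes in this comparison. The fold was -0.35 ± 0.11 (adjusted p = 0.167), or -0.15 relative to the median gene. After scaling the 2P-Im libraries had 14.5, 13.2, 15.9, 13.5 and 12.4 TPM and the vehicle libraries 15.3, 15.6, 15.3, 14.7 and 15.5 TPM. Library 3 was then above every vehicle library, the other 4 were below, and the fold was -0.14 ± 0.057 (adjusted p = 0.539). With scaling 0 of 10 members were without overlap (1.74% of all genes). Against wild type 0 of 10 were, for 2P-Im (1.69% of all genes with scaling, 0.426% deposited) and for vehicle (2.23% and 2.04%).

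Cldn5 in the APP/TAU table had 22.1, 20.3, 20.1, 19.8 and 16.2 TPM after scaling in 2P-Im brains, 19.0, 16.6, 20.1, 13.9 and 19.6 TPM in vehicle brains and 12.7, 17.8, 19.5, 19.0 and 16.3 TPM in wild-type brains. The groups overlapped. The fold was 0.14 ± 0.12 against vehicle (95% interval -0.11 to 0.40) and 0.20 ± 0.12 against wild type (-0.05 to 0.46), and the deposited fold against vehicle was -0.07. Kdr had 4.12, 3.88, 3.53, 3.58 and 3.17 TPM with 2P-Im, 3.31, 3.30, 3.74, 3.26 and 3.25 TPM with vehicle and 2.13, 2.99, 3.57, 3.47 and 2.88 TPM in wild type. In 3 of 5 2P-Im libraries it was above every wild-type library, and the fold was 0.22 ± 0.096 (adjusted p = 0.611). Ly6c1 had 21.0, 28.9, 24.6, 32.6 and 30.6 TPM with 2P-Im, 30.4, 29.5, 22.1, 29.0 and 26.6 TPM with vehicle and 26.8, 27.2, 26.6, 29.2 and 40.5 TPM in wild type. It showed no order of the groups, and the fold of 2P-Im against wild type was -0.12 ± 0.13, with an interval of -0.41 to 0.16.

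The remaining 6 members had scaled folds of 2P-Im against vehicle between -0.10 (Slco1a4) and 0.06 (Tek). Slco1a4 averaged 10.9 ± 1.05 TPM with 2P-Im and 13.8 ± 1.63 TPM with vehicle as deposited (fold -0.30 ± 0.10, adjusted p = 0.167, or -0.11 relative to the median gene), and 11.5 ± 1.22 TPM with 2P-Im and 12.4 ± 1.53 TPM with vehicle after scaling. Of the endothelial and signalling lists none held a called gene in the APP/TAU table. The list of NRF2 and aryl hydrocarbon targets held 1 of 8, Gstm1, at 194 ± 14.7 TPM with 2P-Im and 123 ± 3.27 TPM with vehicle (fold 0.64, adjusted p = 0.00117). It was not called with the deposited values (fold 0.42, adjusted p = 0.167), nor after scaling without vehicle libraries 2 and 4 (fold 0.62, adjusted p = 0.053), an exclusion chosen after seeing the data. Slc40a1, called in the AppNLGF table, was at 0.35 here (adjusted p = 0.355) and Abcg2 at 0.28 (adjusted p = 0.502). Red cell markers varied widely, at 19.7 to 278 TPM with 2P-Im, 30.4 to 483 TPM with vehicle and 22.9 to 79.5 TPM in wild type, and their part was not tested.

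The difference between the tables was tested as a difference of folds taken within each. No member was called, for the effect of 2P-Im against vehicle (0.0731% of genes tested in both with scaling, 0.134% deposited) or of the model against wild type (0.530% and 0.177%). The smallest unadjusted p for the model was that of Ly6c1 with scaling, 0.49 ± 0.17 higher in AppNLGF mice than in APP/TAU mice (adjusted p = 0.247). For the drug it was that of Slco1a4 as deposited, 0.42 ± 0.14 (adjusted p = 0.151), where the median over all genes was 0.15. Model, age and weeks of dosing all differ between the tables, as do the levels of the striatal and cerebellar markers, and these cannot be told apart.

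In level of the gene rows, Slc2a1 and Ly6c1 led the members in both tables. The AppNLGF table also lists transcript rows, which are left out of the order below. For Slco1a4, 1 such row held 7.57 TPM as deposited, level with its gene row at 7.61 TPM, so its place covers the gene row alone. The order in the AppNLGF table, by the mean over 28 libraries, was Slc2a1 (28.8 TPM), Ly6c1 (25.2 TPM), Flt1 (9.29 TPM), Cldn5 (7.90 TPM), Slco1a4 (7.58 TPM), Abcb1a (5.16 TPM), Pecam1 (3.65 TPM), Cdh5 (2.56 TPM), Kdr (1.84 TPM) and Tek (1.81 TPM). Neighbours in this order changed places most often in the cases of Cldn5 and Slco1a4 (Cldn5 above in 17 of 28 libraries) and of Kdr and Tek (Kdr above in 14 of 28). Slc2a1 was above Ly6c1 in 22, Flt1 above Cldn5 in 26 and Cdh5 above Kdr in 27, and the other 4 pairs kept their order in all 28. In the APP/TAU table Ly6c1 (28.4 TPM) and Slc2a1 (27.7 TPM) changed places, with Ly6c1 above in 7 of 15 libraries, and Cldn5 (18.2 TPM) stood above Flt1 (14.6 TPM) in 13 of 15, Pecam1 above Cdh5 in 12 and Kdr above Tek in 10.

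The members did not vary as 1 block. Over the 28 libraries of the AppNLGF table, with each library taken as its deviation from its group mean, the 45 pairs had a median Pearson correlation of 0.167, and 31 were positive. The highest was between the VEGF receptors Flt1 and Kdr, 0.738, and the lowest between Kdr and Slc2a1, -0.623. Cldn5 and Kdr were at 0.633, Kdr and Tek at 0.618, and Slc2a1 and Ly6c1 at 0.647. In the 15 libraries of the APP/TAU table the median was 0.190, with 29 positive, from -0.666 between Slco1a4 and Ly6c1 to 0.827 between Cldn5 and Kdr. Flt1 and Kdr were at -0.02 there.

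Against the mean of the other 9, Abcb1a followed most closely in the AppNLGF table (0.551) and Kdr, Cldn5 and Abcb1a in the APP/TAU table (0.774, 0.735 and 0.683). Slc2a1 (-0.310 and -0.174) and Ly6c1 (-0.232 and -0.365) ran against the others in both tables, so Ly6c1, called beside Cldn5, did not vary with it from library to library (-0.481 and -0.333). These correlations are descriptions: members of a library share its preparation and its scaling.

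**Figure D5:**
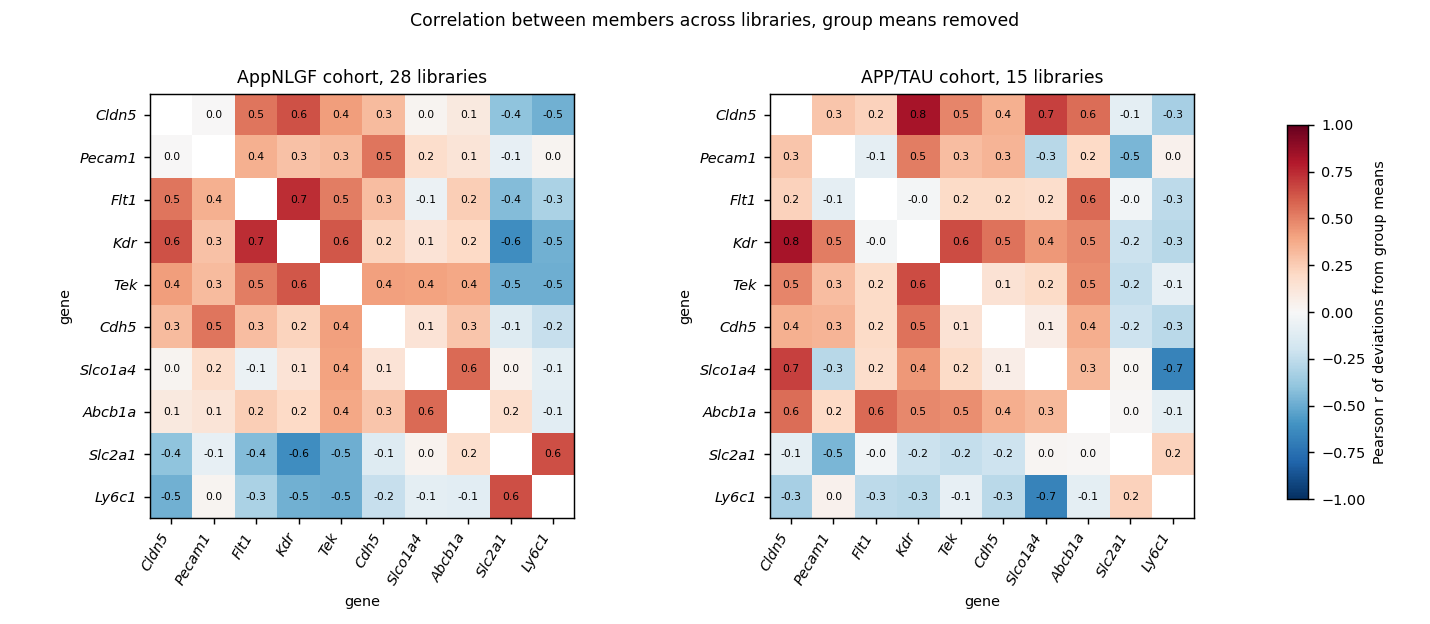
Pearson correlation between each pair of the 10 genes, of log2(TPM + 1) after median-ratio scaling as deviations from group means, in the AppNLGF table (28 libraries) and the APP/TAU table (15 libraries); the colour bar gives the correlation. Flt1 and Kdr (0.738) and Slc2a1 and Ly6c1 (0.647) stand out in the AppNLGF table, and Cldn5 and Kdr (0.827) in the APP/TAU table.

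The genes most like the mean of the 10 over all libraries, ranked by the lower of the correlations of both tables and not centred on groups, were led by Lsr, the lipolysis-stimulated receptor of tricellular junctions (0.609 and 0.669 in the AppNLGF and APP/TAU tables), and Stom, stomatin (0.656 and 0.527). Cyyr1 (0.524 and 0.589), Adcy7 (0.513 and 0.515) and the hexokinase Hk2 (0.511 and 0.528) followed. The pericyte gene Rgs5 was at 0.713 and 0.489.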

How the data were processed

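RNA of 43 mouse brain libraries was prepared with the MGIEasy RNA Directional Library Prep Set, per the labels' protocols. Salmon and the build GRCm38 (mm10) are named in the submitters' processing notes, without a version, annotation or reference. The authors deposited TPM, a table for each cohort, normalized separately and without pooling. TPM keep no sequencing depth, so the reads behind a value are unknown and no counting interval is given. Gene rows hold 88.5 to 91.4% of each AppNLGF library's total and 84.9 to 90.8% of each APP/TAU library's. The AppNLGF table also lists 64708 transcript rows, not used in the main comparisons. The most abundant RNA took 15.5 to 40.0% of a library. Levels were therefore also divided by a scale factor, the median over tested genes of a library's ratio to the gene's geometric mean.

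Libraries were grouped by title. Log2(TPM + 1) of the deposited values was fitted with limma 3.58.1 (1 mean per group, trend, two-sided) in R 4.3.3, over rows with a mean of at least 1 TPM, with Benjamini-Hochberg adjustment over all of them and a threshold of 0.05. This fit is the planned one, and the same fit of the scaled values is its alternative, given throughout because the scaling changes calls. The fits were tested on simulated data. Positions come from the GENCODE M21 annotation (GRCm38). The text names all 10 members and, from each list, every gene called in any comparison or otherwise those with the smallest p. The members and lists were chosen with earlier results of these data known. Alternatives were another pseudocount (0.1), other filters on low values (none, 5 TPM), the 2 groups compared alone, a replicate block, terms for replicate number and Xist, and leaving out each library. A further 5, marked where given, were chosen after seeing the data. The result of 1 marker gene is not reported here.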

Additional observations from a re-analysis of the deposited data

Results flagged for a closer look

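In 5 of 80 sets of library values tested (each member in each group of 4 to 10 libraries, deposited and scaled), 1 library lay far from the others of its group. Chance alone gives about 1 in 20 such sets. All 5 were in the APP/TAU table, but the AppNLGF 2P-Im and vehicle groups, of 13 and 11 libraries, were too large for this test and were left out. Flt1 in 2P-Im library 5 was at 11.2 TPM as deposited, against 13.3 to 14.1 TPM in the other 4. After scaling, Flt1 in wild-type library 3 was at 13.2 TPM against 14.7 to 15.0 TPM, and Kdr in vehicle library 3 was at 3.74 TPM against 3.25 to 3.31 TPM. Ly6c1 in wild-type library 5 was at 40.5 TPM against 26.6 to 29.2 TPM, and Tek in wild-type library 1 was at 2.62 TPM against 3.45 to 3.69 TPM.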

How the results depend on the processing

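Of 3129 folds computed under alternative settings, 3021 kept direction and side of the threshold, 88 changed sign, 12 passed the threshold and 8 no longer passed it. Causes were not tested. TPM give no depth, so the limit set by read number cannot be stated, and 4 wild-type libraries limit the AppNLGF comparisons.

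Median-ratio scaling called 2 members in 2P-Im against wild type of the AppNLGF table, where the deposited values called 0. It put Tek at 0.015 there. In the APP/TAU table it put Pecam1 at -0.054, Tek at -0.13, Slc2a1 at -0.14 and Ly6c1 at -0.11 for vehicle against wild type. For 2P-Im against vehicle it put Cldn5 at 0.14, Pecam1 at 0.0011, Kdr at 0.088, Tek at 0.061 and Slc2a1 at 0.031, and for 2P-Im against wild type Slco1a4 at 0.00030.

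Replicate numbers did not pair the libraries, since deviations of libraries with the same number correlated between -0.08 and 0.12 in the AppNLGF table and between -0.06 and 0.09 in the APP/TAU table. With a replicate block, 0 members were called after scaling in AppNLGF 2P-Im against wild type. Cldn5 was at 0.51 (adjusted p = 0.123), Ly6c1 at 0.58 (adjusted p = 0.122) and Tek at -0.073. Of genes of the wider lists, Vwf (adjusted p = 0.0983), Gstm1 (0.0738), Rgs5 (0.130), Abcg2 (0.221), Slc40a1 (0.197) and Hmox1 (0.185) were not called there with the block, while Ly6a (0.0484) was. In 2P-Im against vehicle Nqo1 (0.155) and Slc40a1 (0.126) were not called, while Gstm1 (0.00727) was. The block put deposited folds at -0.042 for Flt1 and -0.021 for Cdh5 in that comparison, at -0.021 and -0.023 in 2P-Im against vehicle, and at -0.021 for Flt1 and -0.024 for Kdr in vehicle against wild type.

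A term that separates replicate numbers 1 to 5 from 6 and above called 1 member as deposited in AppNLGF 2P-Im against wild type and put Flt1 at -0.067 and, after scaling, Tek at -0.091. In vehicle against wild type it put Pecam1 at -0.014, Flt1 at -0.070, Kdr at -0.050 and Cdh5 at -0.016. After scaling, a term for Xist gave Cldn5 at 0.55 (adjusted p = 0.00592) and Ly6c1 at 0.51 (adjusted p = 0.0411) in 2P-Im against wild type. The remaining settings of this paragraph, but for the last, were chosen after seeing the data. Excluding AppNLGF 2P-Im libraries 1 and 2 called 2 members as deposited in 2P-Im against wild type and, after scaling, 1 in 2P-Im against vehicle and 1 in vehicle against wild type. The excluded libraries enter the last of these only through the shared estimate of the spread. Libraries with Xist below 10 TPM alone, and replicate numbers 1 to 5 alone, each called 0 after scaling in 2P-Im against wild type. Adding transcript rows to their genes kept Cldn5 (0.56, adjusted p = 0.00236) and Ly6c1 (0.46, adjusted p = 0.0258) called. Excluding APP/TAU vehicle libraries 2 and 4 put Ly6c1 at -0.080 in vehicle against wild type as deposited and at 0.054 in 2P-Im against vehicle after scaling. The term for Xist was not run in the APP/TAU table, where 0 libraries were above 10 TPM.

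Leaving out 1 library at a time gave these ranges in the AppNLGF table. As deposited, 0 to 1 members were called in 2P-Im against wild type, with Tek at -0.083 to 0.059. The range was -0.11 to 0.027 for Tek in vehicle against wild type, and -0.0026 to 0.070 for Flt1 and -0.018 to 0.059 for Slc2a1 in 2P-Im against vehicle. After scaling, 1 to 3 members were called in 2P-Im against wild type (Tek -0.030 to 0.088), 0 to 1 in 2P-Im against vehicle and 0 to 1 in vehicle against wild type (Tek -0.083 to 0.035). Cldn5 was called against wild type in 28 of 28 of these fits, at 0.54 to 0.65.

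In the APP/TAU table, deposited ranges were -0.047 to 0.088 for Tek and -0.032 to 0.18 for Slc2a1 in vehicle against wild type, and -0.12 to 0.0088 for Cldn5 in 2P-Im against vehicle. In 2P-Im against wild type they were -0.15 to 0.024 for Pecam1, -0.070 to 0.040 for Slco1a4 and -0.035 to 0.095 for Abcb1a. After scaling, vehicle against wild type gave -0.032 to 0.14 for Cldn5 and -0.013 to 0.073 for Abcb1a. In 2P-Im against vehicle the ranges were -0.064 to 0.045 for Pecam1, -0.0018 to 0.099 for Tek, -0.089 to 0.036 for Cdh5, -0.038 to 0.019 for Abcb1a, -0.019 to 0.087 for Slc2a1 and -0.082 to 0.082 for Ly6c1. In 2P-Im against wild type they were -0.056 to 0.047 for Slco1a4 and -0.025 to 0.061 for Abcb1a.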

Other observations

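The AppNLGF table lists single transcripts as well as genes, and 4 transcript rows of the members had a mean of at least 1 TPM as deposited. Slco1a4 had the row ENSMUST00000163678 at 7.57 TPM, level with its gene row at 7.61 TPM, and Slc2a1 had ENSMUST00000174372, annotated for nonsense-mediated decay, at 8.03 TPM beside a gene row at 28.6 TPM. The Flt1 row ENSMUST00000031652 averaged 1.59 ± 0.813 TPM with 2P-Im, 0.842 ± 0.591 TPM with vehicle and 0.412 ± 0.825 TPM in wild type (SD, n = 13, 11 and 4). Its wild-type median was 0 and its wild-type highest value 1.65 TPM. The Ly6c1 row ENSMUST00000185372 was highest in wild type, unlike the Ly6c1 gene row. It averaged 1.34 ± 0.789 TPM with 2P-Im, 1.26 ± 1.25 TPM with vehicle and 2.14 ± 1.57 TPM in wild type. These rows were not tested.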
